A study of Mus musculus with 7 samples.

Results

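Hhex, the gene targeted in this study, lies on mouse chromosome 19 among a small group of genes of unrelated function, and these are described here with it. Besides Hhex, the members are Btaf1, Cpeb3, March5, Ide, Exoc6, Plce1, Noc3l and Tbc1d12, chosen by name for lying close to Hhex, with the cell-cycle genes of the region left out. The choice was made with earlier results of these data known. All 9 were found among the 53379 genes of the count table, matched by Ensembl identifier. The samples are 4 of genotype Hhex KO and 3 Cre controls. All are NK cells of C57BL/6 spleen, sorted as viable cells with the markers C45+ (as the labels write it) CD3- Nk1.1+ NKp46+ CD49b+. What drives the Cre, which exons are deleted and how old and of which sex the mice were could not be read from the labels used here. The comparison asks whether the targeted gene is lost and whether the genes around it differ with it.

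HHEX, also called PRH, is a homeodomain transcription factor of blood, endothelial and liver progenitors that often acts as a repressor, in part by recruiting Groucho/TLE corepressors. Natural killer (NK) cells are innate lymphocytes that kill infected and transformed cells. The neighbours have other tasks. EXOC6 is a subunit of the exocyst, which tethers secretory vesicles to the plasma membrane, IDE degrades insulin and other small peptides, and MARCH5 is a ubiquitin ligase of the mitochondrial outer membrane. CPEB3 binds mRNAs and controls their translation, and BTAF1 is an ATPase that removes the TATA-binding protein TBP from DNA. PLCE1 is a phospholipase C that responds to Ras, NOC3L is a nucleolar protein needed for ribosome assembly and DNA replication in yeast, and TBC1D12 binds the recycling-endosome GTPase RAB11. In humans, HHEX and IDE lie in a region associated with diabetes risk.

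In the GENCODE annotation on GRCm38 (mm10), the genes follow each other on chromosome 19 in the order Btaf1, Cpeb3, March5, Ide, Hhex, Exoc6, Plce1, Noc3l and Tbc1d12. Hhex (ENSMUSG00000024986.11) spans 37434810 to 37440731 on the plus strand. Its main protein-coding transcript has 4 exons of 424, 179, 51 and 1148 bases. Upstream of it, Btaf1 (ENSMUSG00000040565.7) spans 36926079 to 37012752, Cpeb3 (ENSMUSG00000039652.16) 37021291 to 37208601, March5 (ENSMUSG00000023307.13) 37207543 to 37222151 and Ide (ENSMUSG00000056999.14) 37268743 to 37337852. The only coding gene between Ide and Hhex is Kif11, a mitotic kinesin that is not a member. Downstream, Exoc6 (ENSMUSG00000053799.6) spans 37550418 to 37684059 and begins 109686 bp after the end of Hhex, with no coding gene between them. Plce1 (ENSMUSG00000024998.17), at 38481109 to 38785030, Noc3l (ENSMUSG00000024999.7), at 38788128 to 38819237, and Tbc1d12 (ENSMUSG00000048720.7), at 38836579 to 38919923, are not immediate neighbours. They start 1046, 1384 and 1402 kb from the start of Hhex, and 10 other coding genes lie between Exoc6 and Plce1.

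The sequences around the starts of the 3 members that changed are shown because their base composition and their homeodomain core motifs differ. The windows are RefSeq promoters on GRCm38.p6, from 250 bases before to 50 bases after a start, and are given 5′ to 3′ on the gene's strand. Capitals mark ATTA or its reverse complement TAAT, the core that most homeodomains bind. Hhex is chr19:37434591-37434890, Exoc6 is chr19:37550168-37550467 and Plce1 is chr19:38523947-38524246, all on the plus strand.
Hhex: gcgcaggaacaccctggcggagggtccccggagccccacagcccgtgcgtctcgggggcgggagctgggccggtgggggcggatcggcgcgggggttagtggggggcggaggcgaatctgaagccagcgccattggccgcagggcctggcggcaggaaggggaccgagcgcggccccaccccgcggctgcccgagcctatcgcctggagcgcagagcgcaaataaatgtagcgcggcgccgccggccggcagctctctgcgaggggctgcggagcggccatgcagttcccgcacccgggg
Exoc6: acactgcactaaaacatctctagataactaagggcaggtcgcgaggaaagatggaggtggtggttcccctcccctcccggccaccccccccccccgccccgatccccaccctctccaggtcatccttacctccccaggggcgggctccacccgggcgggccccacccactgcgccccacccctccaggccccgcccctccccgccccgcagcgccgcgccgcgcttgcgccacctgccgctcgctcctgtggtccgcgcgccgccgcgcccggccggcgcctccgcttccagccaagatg
Plce1: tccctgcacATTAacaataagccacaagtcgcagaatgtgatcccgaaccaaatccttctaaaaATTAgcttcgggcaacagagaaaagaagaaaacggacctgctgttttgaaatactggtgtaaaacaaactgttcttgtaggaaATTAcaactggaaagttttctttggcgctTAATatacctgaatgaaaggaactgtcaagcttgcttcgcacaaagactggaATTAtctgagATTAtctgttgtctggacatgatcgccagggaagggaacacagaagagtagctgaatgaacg
The Hhex and Exoc6 windows hold 37 and 30 CpG dinucleotides at 75.7% and 74.0% G and C, and no ATTA on either strand. The Plce1 window holds 8 CpG and 6 ATTA matches at 41.0% G and C. ATTA occurs in 58.0% of 32841 promoter windows of the same length, whose median is 52.7% G and C and 7 CpG. The longer ATTAAA occurs in 13.9% of the windows and in none of these 3. The RefSeq start of Plce1 lies 43088 bp inside the GENCODE gene. Members that were not called also differed: ATTA occurred in the windows of Ide (2 matches) and Btaf1 (2), and in none of those of March5, Noc3l and Tbc1d12. The windows of Cpeb3 held 0, 3 and 2 matches. The matches describe the letters of these windows only.

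Total counts were 10589915 to 18414034 in Hhex KO libraries and 11482273 to 18456404 in Cre control libraries. Hhex KO replicates 1 and 4 stood apart from replicates 2 and 3: the chi-square per degree of freedom between libraries was 28.3 for the first pair, 11.2 for the second and 69.2 to 78.5 across them. In the column labels, Hhex KO replicate 4 has the number 95 after an S, and the other 6 libraries have numbers from 20 to 28. Those labels do not say what the number stands for. Levels are given as CPM, counts per 1000000 counts of the scaled library, and a gene is called where edgeR's quasi-likelihood test gave an adjusted p below 0.05 over the 12161 genes tested, as it did for 4.56% of them. Of 10 NK cell markers, all were tested and none was called with edgeR (1 had an unadjusted p under 0.05, 0 were called with DESeq2 or unweighted limma-voom and 1 with sample quality weights). Ncr1, the gene of the sort marker NKp46, was at 878 ± 104 CPM (SD, n = 4) in Hhex KO and 932 ± 100.4 CPM (SD, n = 3) in Cre control. T cell markers summed to 390 to 455 CPM in Hhex KO and 274 to 323 CPM in Cre control, and 1 of 7 tested, Trbc2, rose. All 7 had a positive log2 fold change, 6 had an unadjusted p under 0.05 (18.5% of all genes had), and 2 were called with DESeq2, 1 with unweighted limma-voom and 6 with sample quality weights. B cell markers summed to 300.4 to 470 CPM in Hhex KO and 225 to 276 CPM in Cre control, and 2 of 4 tested, Cd79b and Cd22, rose. All 4 had a positive log2 fold change, 3 had an unadjusted p under 0.05, and 3 were called with DESeq2, 1 with unweighted limma-voom and 3 with sample quality weights. Over all genes tested, DESeq2 called 9%, unweighted limma-voom 4.77% and the fit with sample quality weights 23.5%. Cd22 was at 72.7 ± 12.6 CPM (SD, n = 4) in Hhex KO and 14.2 ± 4.76 CPM (SD, n = 3) in Cre control. Myeloid markers summed to 706 to 1363 CPM in Hhex KO and 532 to 928 CPM in Cre control, with 0 of 7 tested called. Most of this sum was Itgax, at 821 ± 114 CPM (SD, n = 4) in Hhex KO and 693 ± 195 CPM (SD, n = 3) in Cre control. Lyz2 varied widely, at 62.1 ± 92.8 CPM in Hhex KO and 47.9 ± 33.2 CPM in Cre control, so the lack of calls does not show equal levels. Erythroid markers summed to 1.95 to 47.3 CPM in Hhex KO and 4.32 to 25.1 CPM in Cre control, with 0 of 5 tested called; none of either list had an unadjusted p under 0.05 or was called with DESeq2 or limma-voom. No marker of these lists was at 0 in every library. The part of other cells in the results below was not tested, and in bulk RNA fewer cells of a type and less RNA per cell cannot be told apart.

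Hhex fell in Hhex KO cells, but most of its reads remained. It had 896, 987, 920 and 732 raw counts in Hhex KO replicates 1 to 4 and 1283, 1086 and 1731 in Cre control replicates 1 to 3. Scaled to library size, the mean was 58.4 ± 4.57 CPM (SD, n = 4) in Hhex KO and 95.1 ± 1.37 CPM (SD, n = 3) in Cre control, so that 61.4% of the control level was left. The groups did not overlap, at 54.2 to 64.8 CPM in Hhex KO and 93.5 to 96.1 CPM in Cre control, and every Hhex KO library was lower than every control. The log2 fold change was -0.70 ± 0.10 (SE, adjusted p = 0.00768 by edgeR), a fold of 0.614 with a 95% interval of 0.523 to 0.721. The call was lost without Cre control replicate 1 (adjusted p = 0.0516), at the same rounded log2 fold change of -0.70. Since the table counts reads over the whole gene, it does not show whether a deleted exon is missing from the remaining transcripts. The predicted transcript Gm38345, on the other strand and 153 bp from the Hhex start, was at 3.07 ± 0.920 CPM (SD, n = 4) in Hhex KO and 4.00 ± 0.390 CPM (SD, n = 3) in Cre control and was not called (adjusted p = 0.553).

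**Figure D1:**
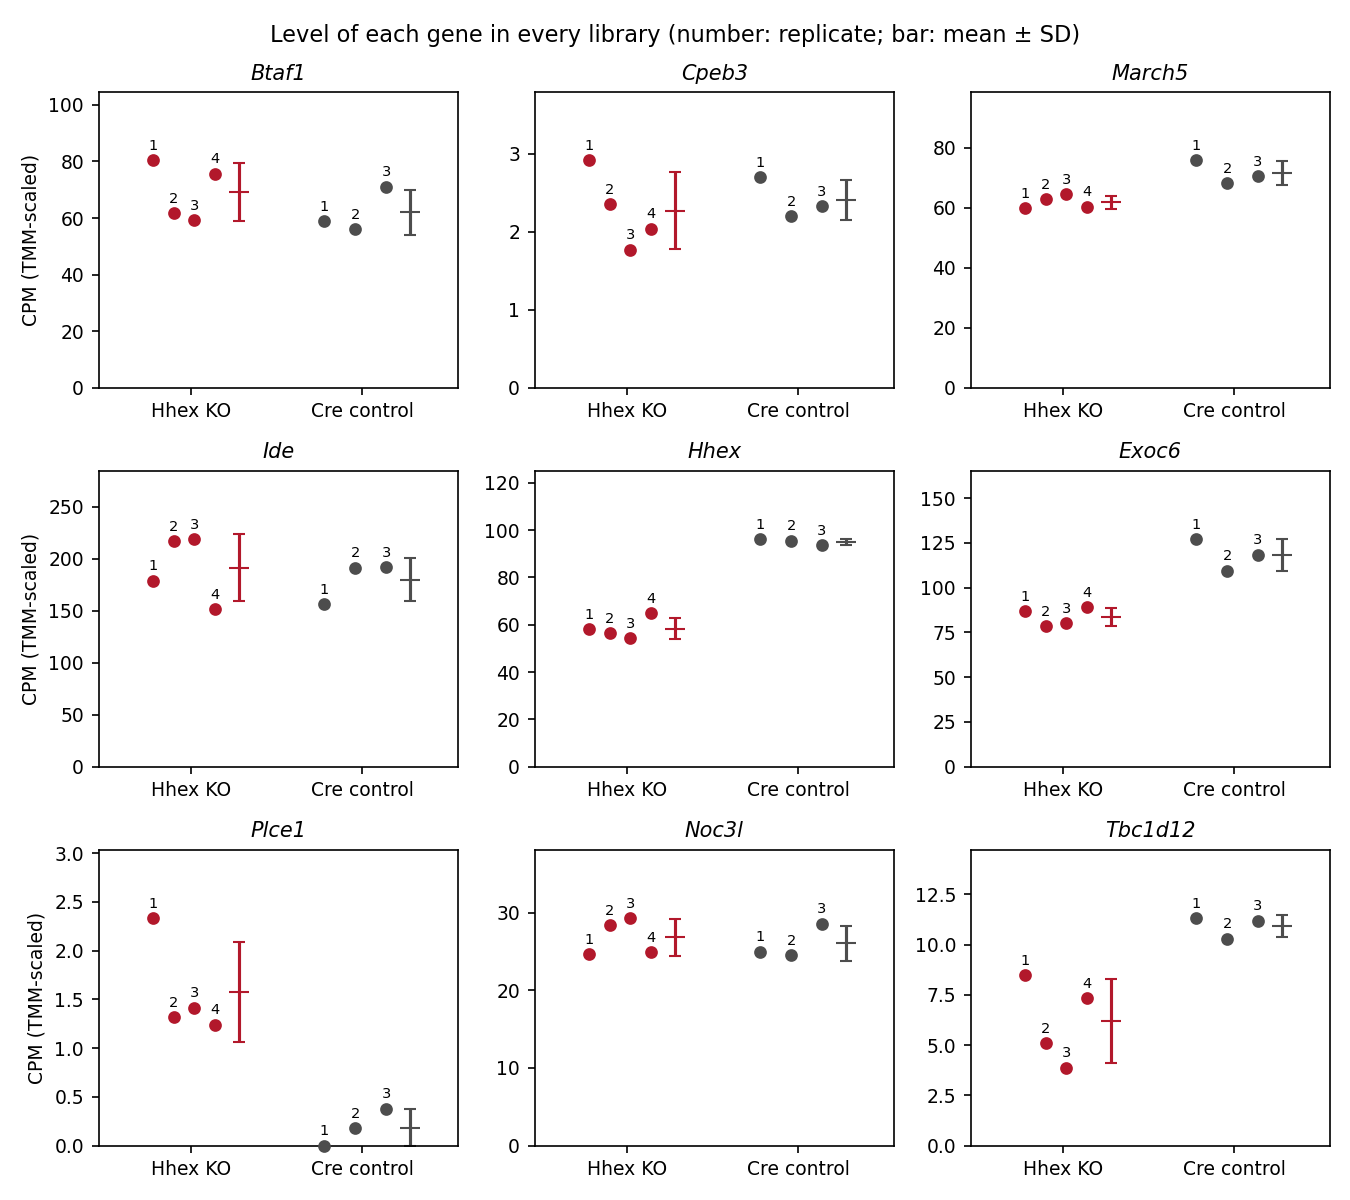
Level of the 9 genes in each library, in CPM of the TMM-scaled library size (y axis from 0), ordered by position on the chromosome. Points are libraries with their replicate number, Hhex KO on the left and Cre control on the right, and bars are mean ± SD; the groups are apart for March5, Hhex, Exoc6, Plce1 and Tbc1d12 and overlap for the other 4 genes.

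Among the 8 other members, Exoc6 fell, Plce1 rose and 6 did not pass the test. Over all genes, 4.56% of 12161 were called in either direction, 2.68% as higher and 1.87% as lower, and 18.5% had an unadjusted p under 0.05, as had 3 of the 8. Other tools called 9% (DESeq2), 4.77% (limma-voom) and 23.5% (limma-voom with sample quality weights) of all genes. The 2 calls among 8 members are a larger share than 4.56%, but the members were chosen with earlier results of these data known. Tested genes nearer to Hhex than Plce1, such as Tnks2 and Slc35g1 (neither called), are not members. The share is therefore no test of enrichment near Hhex. Both calls were lost in 6 of the 7 fits that left out a library. The median log2 fold change of the 8 members was -0.02, with 4 above and 4 below 0, against 0.02 over all genes tested. Plce1 passed the filter on low counts only through the Hhex KO libraries, so in the main fit it was tested only because it was higher there. Its place among the 2 calls, the 3 unadjusted p-values and the 4 members without overlap comes with that choice. The groups did not overlap for 4 of the 8, March5, Exoc6, Plce1 and Tbc1d12, compared with 19.3% of all genes tested.

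Exoc6, the coding gene next to Hhex on the downstream side, had 1342, 1367, 1361 and 1007 raw counts in Hhex KO replicates 1 to 4 and 1695, 1244 and 2192 in Cre control replicates 1 to 3. This was 83.6 ± 5.22 CPM (SD, n = 4) in Hhex KO and 118 ± 8.78 CPM (SD, n = 3) in Cre control. Every Hhex KO library, at 78.3 to 89.2 CPM, was lower than every control, at 109 to 127 CPM. The log2 fold change was -0.50 ± 0.11 (SE, adjusted p = 0.0334), a fold of 0.707 with a 95% interval of 0.599 to 0.834. The call was lost when any library but Hhex KO replicate 4 was left out, at adjusted p values up to 0.168, and with no filter on low counts (adjusted p = 0.0592), while the log2 fold change stayed between -0.55 and -0.45. Across the 7 libraries the log2 level of Exoc6 followed that of Hhex with a Pearson r of 0.97, a description of libraries that fall into 2 groups. For the deviations from the group means, r was 0.60. Following Hhex was not particular to Exoc6: the same 2 values were 0.86 and 0.68 for Tbc1d12. They were 0.83 and -0.41 for March5, and -0.38 and -0.87 for Ide.

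The rest of the exocyst did not share the call. Of the other 10 tested subunits and relatives, 0 were called with edgeR, DESeq2 or limma-voom and 1 had an unadjusted p under 0.05, and their log2 fold changes ran from -0.45 to 0.34 with a median of -0.14. Of these, 8 were below 0 and 2 above. Its paralog Exoc6b was at 21.1 ± 4.06 CPM (SD, n = 4) in Hhex KO and 25.97 ± 3.48 CPM (SD, n = 3) in Cre control (log2 fold change -0.30 ± 0.18, SE, adjusted p = 0.422). Per length, in RPKM (CPM per kilobase of protein-coding transcript exons), Exoc6 was at 23.6 RPKM in Hhex KO and 33.4 RPKM in Cre control, and Exoc2, another core subunit, at 31.7 RPKM in Hhex KO and 32.7 RPKM in Cre control. In Cre control the means of Exoc6 and Exoc2 were the highest of the 11 tested.

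Ide, the member on the upstream side of Hhex, did not pass the test. It was at 179, 217, 219 and 152 CPM in Hhex KO replicates 1 to 4 and at 156, 191 and 192 CPM in Cre control replicates 1 to 3. The groups overlapped, and the mean was 191 ± 32.2 CPM (SD, n = 4) in Hhex KO and 180 ± 20.4 CPM (SD, n = 3) in Cre control. The log2 fold change was 0.09 ± 0.16 (SE, adjusted p = 0.845), and the 95% interval of the fold ran from 0.830 to 1.37, which does not show that the levels are equal. Without Cre control replicate 1 the direction turned, to a log2 fold change of -0.0078. Of the 6 other tested peptidases of its family (M16), 0 were called with edgeR, DESeq2 or limma-voom and 0 had an unadjusted p under 0.05, and their log2 fold changes lay between -0.08 and 0.07. Nrd1, a related peptidase of the cytosol, was at 31.2 RPKM in Hhex KO and 32.2 RPKM in Cre control, and Ide at 38.6 RPKM in Hhex KO and 36.2 RPKM in Cre control.

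The ratio of Hhex reads to the reads of each flanking member within a library is free of the scaling between libraries. Hhex to Ide was 0.325, 0.261, 0.248 and 0.428 in Hhex KO replicates 1 to 4 and 0.615, 0.499 and 0.488 in Cre control replicates 1 to 3. The groups were apart, with a difference of -0.79 on the log2 scale, and a two-sided exact permutation test gave p = 0.0571 (n = 4 and 3). Hhex KO replicate 4 was the Hhex KO library nearest the controls. Hhex to Exoc6 was 0.668, 0.722, 0.676 and 0.727 in Hhex KO replicates 1 to 4 and 0.757, 0.873 and 0.790 in Cre control replicates 1 to 3. The difference was -0.21 on the log2 scale, with an exact permutation p = 0.0286, the smallest that 4 against 3 libraries can give. Adjusted over the 2 ratios, both p-values were 0.0571. Hhex stood lower relative to Exoc6 in each Hhex KO library than in each control, but the difference did not pass the correction.

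**Figure D2:**
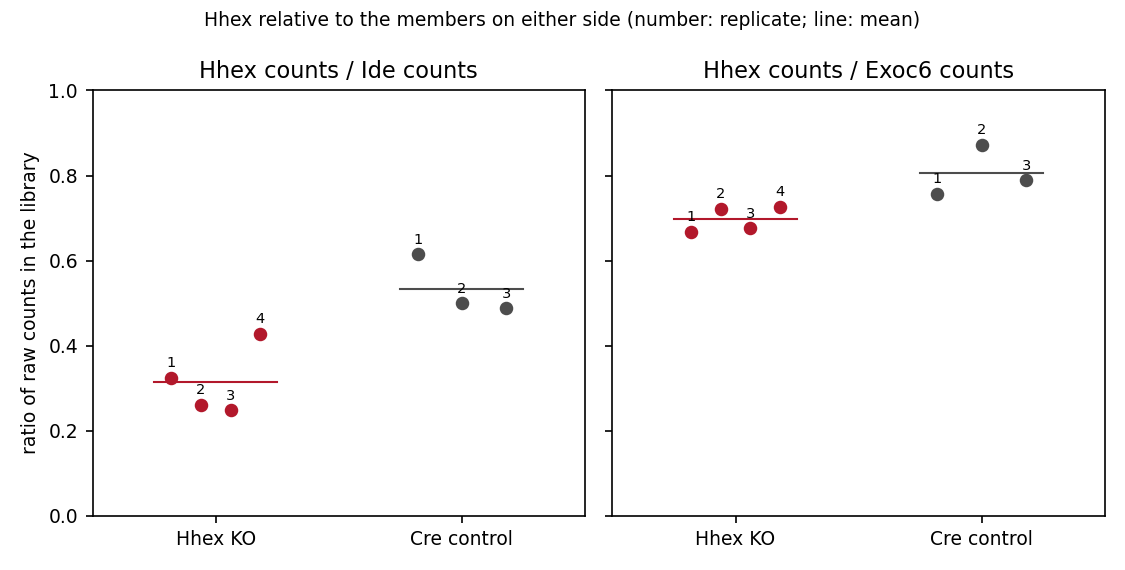
Raw counts of Hhex divided by those of Ide (left) and Exoc6 (right) in each library, on y axes from 0 to 1. Points are libraries with their replicate number, Hhex KO left of Cre control, and lines are group means; Hhex KO libraries reach at most 0.428 and 0.727, and control libraries are at least 0.488 and 0.757.

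Plce1 was read at very low levels and rose in Hhex KO. It had 36, 23, 24 and 14 raw counts in Hhex KO replicates 1 to 4 and 0, 2 and 7 in Cre control replicates 1 to 3. The level was 1.24 to 2.33 CPM in Hhex KO and 0 to 0.38 CPM in Cre control, so the groups were apart, and replicate 1 was the highest Hhex KO library. The summed counts, 97 in Hhex KO and 9 in Cre control, gave a ratio of 7.61 per scaled library size (95% exact binomial interval 3.85 to 17.2, for counting error only). The fitted log2 fold change was 2.93 ± 0.67 (SE, adjusted p = 0.0440). Since the gene passed the filter of this fit only through the Hhex KO libraries, the p-value and the call come partly with that selection. The call was lost when any library but Hhex KO replicate 4 was left out (adjusted p up to 0.154), and the log2 fold change was 2.41 when Cre control replicate 1 was left out and 4.13 when replicate 3 of the Cre controls was. A filter of 10 CPM removed the gene. With no filter on low counts, edgeR also called it higher (log2 fold change 2.94, adjusted p = 0.00842). Of the other 6 tested phospholipase C genes, 0 were called with edgeR, DESeq2 or unweighted limma-voom, 1 was with sample quality weights, and 0 had an unadjusted p under 0.05, with log2 fold changes of -0.23 to 0.52. Plcg2, the signalling phospholipase of NK receptors, was at 58.7 RPKM in Hhex KO and 62.4 RPKM in Cre control, compared with 0.156 RPKM in Hhex KO and 0.0183 RPKM in Cre control for Plce1.

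After Plce1, Tbc1d12 had the largest log2 fold change in size among the 9 genes, but it did not pass the test. It was at 8.48, 5.10, 3.89 and 7.35 CPM in Hhex KO replicates 1 to 4 and at 11.3, 10.3 and 11.2 CPM in Cre control replicates 1 to 3. The groups did not overlap, but Hhex KO replicates 2 and 3 were well below replicates 1 and 4. The mean was 6.21 ± 2.09 CPM (SD, n = 4) in Hhex KO and 10.9 ± 0.556 CPM (SD, n = 3) in Cre control, a log2 difference of -0.82 ± 0.26 (SE, adjusted p = 0.126). With limma-voom and sample quality weights it was called lower (adjusted p = 0.00324), a setting that called 23.5% of all genes tested. Its paralog Tbc1d14, which also binds RAB11, was at 64.6 ± 4.73 CPM (SD, n = 4) in Hhex KO and 65.0 ± 5.03 CPM (SD, n = 3) in Cre control (log2 fold change -0.01). Of the 10 other tested genes of RAB11 recycling endosomes, Rab11fip1, a RAB11 effector, rose by 0.73 ± 0.17 on the log2 scale (adjusted p = 0.0454; lost in 6 of 7 fits that left out a library). The remaining 9 were not called with edgeR. Of the 10, 4 had an unadjusted p under 0.05, 1 was called with DESeq2 and 4 were with sample quality weights. An unadjusted p under 0.05 was found for 18.5% of all genes tested, and DESeq2 called 9% of them.

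March5 differed little, but its groups did not overlap. It was at 59.8, 62.8, 64.4 and 60.2 CPM in Hhex KO replicates 1 to 4 and at 75.8, 68.0 and 70.4 CPM in Cre control replicates 1 to 3. The log2 fold change was -0.21 ± 0.10 (SE, adjusted p = 0.302), and the fold had a 95% interval of 0.743 to 1.01. Of the 6 other tested MARCH ligases, 0 were called with edgeR and 1 had an unadjusted p under 0.05, March3, at 6.85 ± 0.697 CPM (SD, n = 4) in Hhex KO and 3.67 ± 0.940 CPM (SD, n = 3) in Cre control (adjusted p = 0.0626). March3 was called higher with DESeq2 and with both limma-voom fits (adjusted p 0.00612 to 0.0497). Of 12 other tested genes of mitochondrial outer membrane dynamics, Pink1, the kinase that marks damaged mitochondria, fell by 0.58 ± 0.12 on the log2 scale, to 107 ± 6.74 CPM (SD, n = 4) in Hhex KO, against 160 ± 19.2 CPM (SD, n = 3) in Cre control (adjusted p = 0.0292). Its call was lost in 5 of 7 fits that left out a library. The remaining 11, among them the fusion gene Mfn1 at log2 -0.22 ± 0.11, did not pass. Of the 12, 2 had an unadjusted p under 0.05, 1 was called with DESeq2 and 3 were with sample quality weights. Such an unadjusted p was found for 18.5% of all genes tested. DESeq2 called 9% of them and the fit with quality weights 23.5%.

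Cpeb3 and March5 start head to head and overlap by 1059 bp, so reads there may have been assigned to either gene or to none. Cpeb3 was at 2.91, 2.35, 1.77 and 2.04 CPM in Hhex KO replicates 1 to 4 and at 2.70, 2.20 and 2.32 CPM in Cre control replicates 1 to 3. The groups overlapped, and the log2 difference was -0.09 ± 0.27 (SE, adjusted p = 0.921). At this depth, 23 to 45 counts a library, the 95% interval of the fold was wide, 0.620 to 1.43. Of 12 other tested genes of CPEB and the deadenylation machinery, 0 were called with edgeR, DESeq2 or unweighted limma-voom and 3 with sample quality weights, and Tob2, alone with an unadjusted p under 0.05, showed a log2 difference of -0.49 ± 0.19 (adjusted p = 0.211). The fit with quality weights called 23.5% of all genes tested, and 18.5% of them had an unadjusted p under 0.05. Per length, the family's highest levels were those of Cpeb4, at 6.87 RPKM in Hhex KO and 8.54 RPKM in Cre control, and Cpeb2, at 4.05 RPKM in Hhex KO and 4.51 RPKM in Cre control. Cpeb3 was at 0.306 RPKM in Hhex KO and 0.325 RPKM in Cre control.

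Btaf1, the farthest upstream member, and Noc3l, beside Tbc1d12, were not called. Btaf1 was at 80.4, 61.8, 59.3 and 75.6 CPM in Hhex KO replicates 1 to 4 and at 58.9, 56.1 and 71.0 CPM in Cre control replicates 1 to 3. The groups overlapped (log2 fold change 0.16 ± 0.15, SE, adjusted p = 0.658; 95% interval of the fold 0.885 to 1.41). Noc3l was at 24.7, 28.4, 29.3 and 24.9 CPM in Hhex KO replicates 1 to 4 and at 24.95, 24.5 and 28.6 CPM in Cre control replicates 1 to 3, a log2 difference of 0.04 ± 0.12 (SE, adjusted p = 0.917) with a 95% interval of the fold of 0.848 to 1.25. Of 21 other tested genes of TBP and the TFIID complex, Taf7, a TFIID subunit, fell by 0.85 ± 0.17 on the log2 scale (adjusted p = 0.0285; lost in 5 of 7 fits that left out a library), and 20 were not called; 2 of the 21 had an unadjusted p under 0.05, 1 was called with DESeq2 and 3 were with sample quality weights. Of 17 other genes of the nucleolar NOC proteins and large ribosomal subunit assembly, 0 were called with edgeR, DESeq2 or unweighted limma-voom and 7 with sample quality weights, 4 had an unadjusted p under 0.05, and 14 had a positive log2 fold change, with a median of 0.29. Rpf2 had the smallest p of these by edgeR (log2 difference 0.45 ± 0.15, adjusted p = 0.145) and was called higher with limma-voom and sample quality weights (0.0126). For both lists, the shares over all genes are the background. An unadjusted p under 0.05 was found for 18.5% of all genes tested. EdgeR called 4.56% of them, DESeq2 9% and the fit with quality weights 23.5%.

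**Figure D3:**
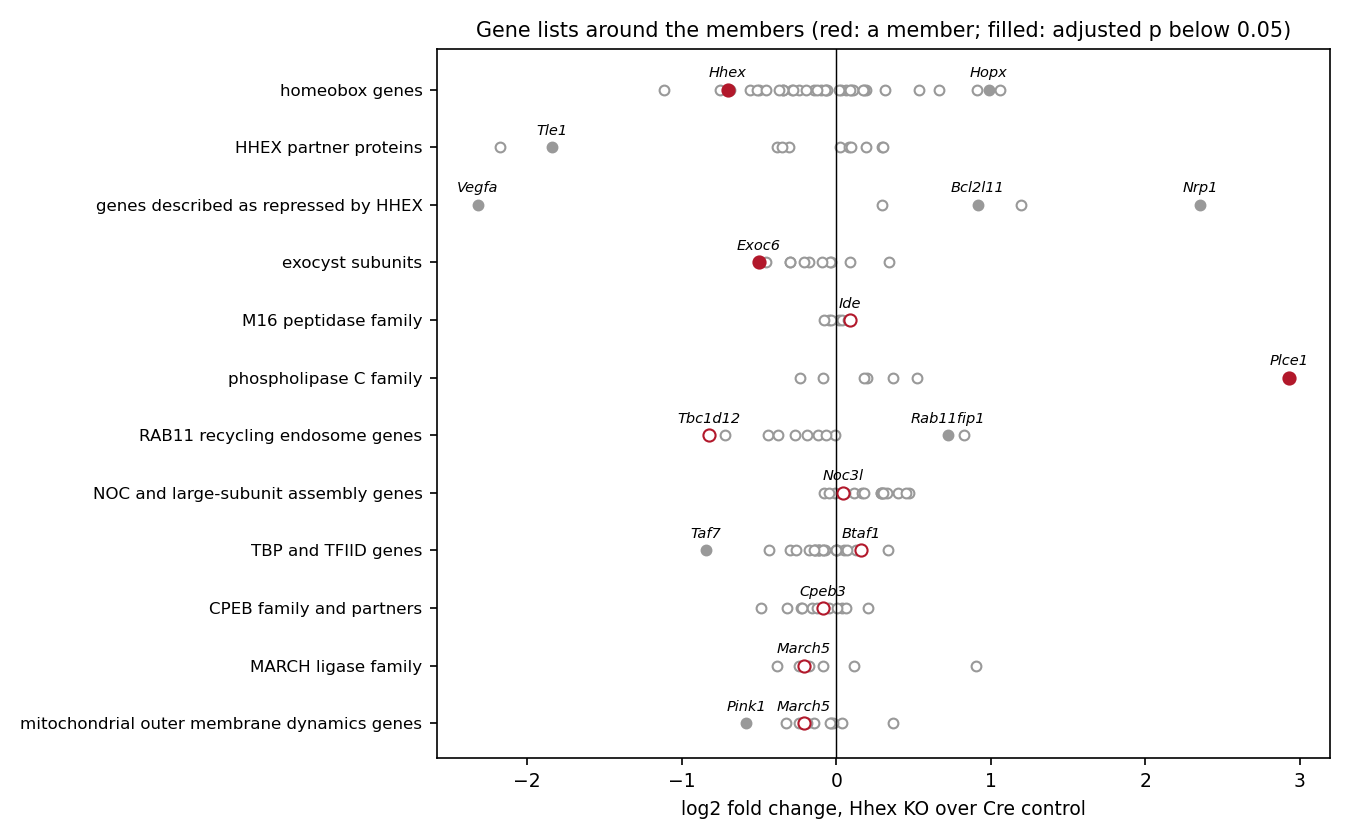
Log2 fold change of Hhex KO over Cre control (x axis) for the tested genes of each list around the members (rows). Red points are members, grey points other genes, and filled points have an adjusted p below 0.05; Exoc6 (-0.50) and Plce1 (2.93) are the only called genes of their families.

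The members span a wide range of levels. Per length, Hhex was at 30.4 ± 2.38 RPKM (SD, n = 4) in Hhex KO and 49.6 ± 0.713 RPKM (SD, n = 3) in Cre control. In Cre control it stood above Ide, March5 and Exoc6, whose libraries overlapped at 30.9 to 38.6 RPKM. In Hhex KO, Ide at 38.6 ± 6.50 RPKM (SD, n = 4), Hhex and March5, at 29.7 ± 1.05 RPKM, overlapped in that order, and Exoc6, at 23.6 ± 1.47 RPKM, lay below them. Then followed, with no overlap in either group, Btaf1 at 9.62 RPKM in Hhex KO and 8.61 RPKM in Cre control, Noc3l at 6.74 RPKM in Hhex KO and 6.55 RPKM in Cre control, Tbc1d12 at 1.47 RPKM in Hhex KO and 2.60 RPKM in Cre control, and last Cpeb3 and Plce1. The rank of Hhex depends on the length used: a retained-intron transcript lengthens its exons from 1918 to 5056 bases, and over that length its level was 11.5 RPKM in Hhex KO and 18.8 RPKM in Cre control, below Ide, March5 and Exoc6.

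**Figure D4:**
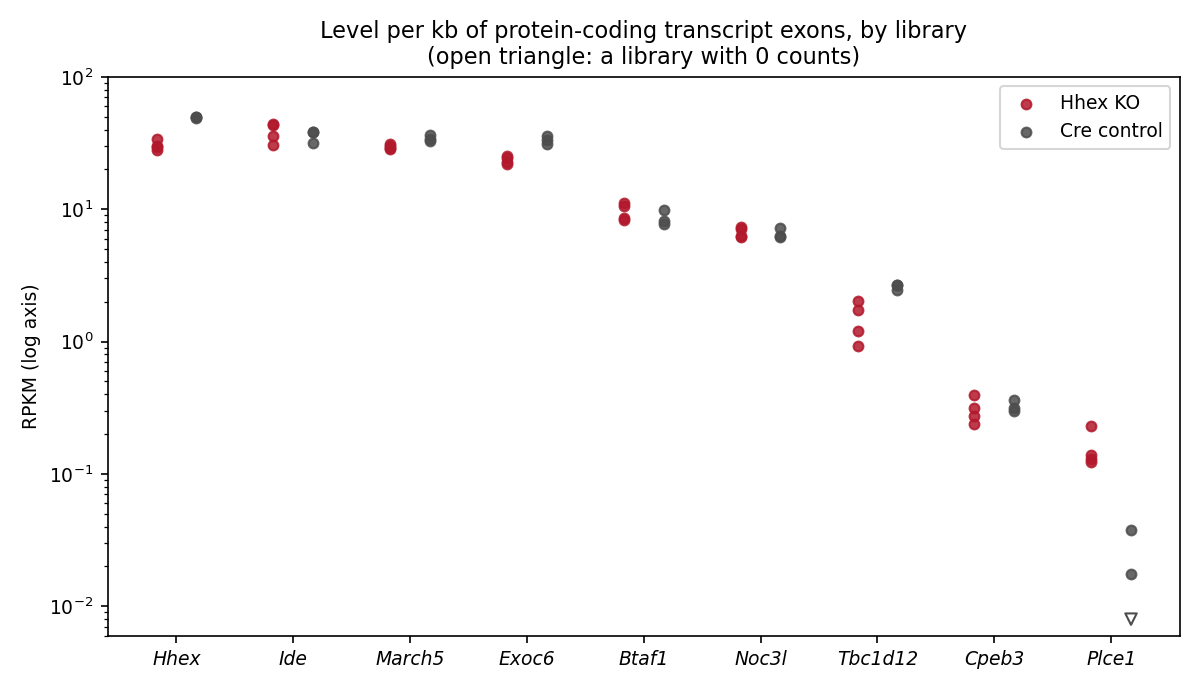
RPKM of each member in each library on a log axis, Hhex KO left of Cre control for each gene, genes ordered by their Cre control mean. Hhex, Ide, March5 and Exoc6 lie between 22.1 and 50.1 RPKM, and Plce1 had 0 counts in 1 Cre control library (open triangle).

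The whole neighbourhood was also read, not only the members. Within 1 Mb of the Hhex start, 13 other genes were tested, of which Exoc6 fell, Cep55 rose and 11 were not called (15.4% called, compared with 4.56% of all genes), with a median log2 fold change of -0.09. Cep55, a protein of the final step of cell division, was at 16.3 ± 3.60 CPM (SD, n = 4) in Hhex KO and 4.16 ± 1.68 CPM (SD, n = 3) in Cre control (log2 fold change 1.97 ± 0.32, adjusted p = 0.0123). Kif11, the gene between Ide and Hhex, was at 57.7, 56.5, 63.1 and 18.8 CPM in Hhex KO replicates 1 to 4 and at 6.82, 20.2 and 20.3 CPM in Cre control replicates 1 to 3. It overlapped between the groups and was not called (log2 fold change 1.64 ± 0.49, adjusted p = 0.115), but was past 0.05 without Hhex KO replicate 4 (0.0341), with DESeq2 (0.00429) and with limma-voom and sample quality weights (0.00750). Hells, a chromatin remodeller of dividing cells beside Tbc1d12, was at 37.2 ± 11.7 CPM (SD, n = 4) in Hhex KO and 13.9 ± 2.79 CPM (SD, n = 3) in Cre control (log2 fold change 1.42 ± 0.27, adjusted p = 0.0227). Its call was lost without any 1 Cre control library (adjusted p 0.0782 to 0.108).

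Within 2 Mb, 3 of 19 tested genes rose and 1 fell (21.1%), namely Cep55, Plce1, Hells and Exoc6. Plce1 counts here although in this fit it was tested only because it was higher in Hhex KO. Of 61 tested genes within 5 Mb, 3 rose and 2 fell (8.20%), and of 422 on the whole of chromosome 19, 15 rose and 11 fell (6.16%). Next to Hhex on the upstream side, the tested genes had log2 fold changes of -0.37 (Gm38345, not called), 1.64 (Kif11, not called) and 0.09 (Ide, not called), and beyond Exoc6 the next tested gene was Cep55.

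**Figure D5:**
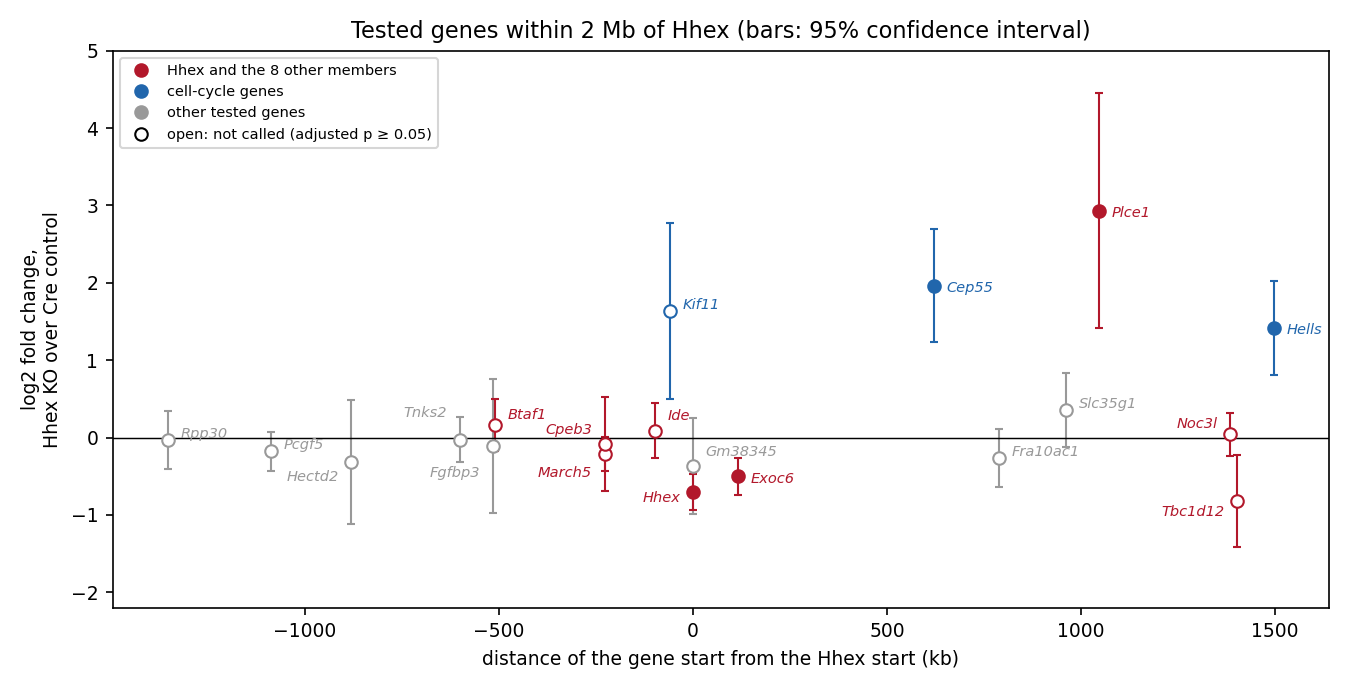
Log2 fold change of Hhex KO over Cre control (y axis) against the distance of each gene's start from that of Hhex in kb (x axis), for Hhex and the 19 tested genes within 2 Mb. Bars are 95% confidence intervals, colours separate the members, the cell-cycle genes and the rest, and open points were not called; Hhex (-0.70) and Exoc6 (-0.50) are the called genes below 0.

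Among the other homeobox genes, 1 of 36 tested was called with edgeR, compared with 4.56% of all genes. DESeq2 called 4, limma-voom with sample quality weights called 14, and 10 had an unadjusted p under 0.05. The shares over all genes by these 3 rules were 9%, 23.5% and 18.5%. Hopx, an atypical homeodomain protein, rose by 0.99 ± 0.18 in log2 units, to 214 ± 38.8 CPM (SD, n = 4) in Hhex KO, against 108 ± 18.2 CPM (SD, n = 3) in Cre control (adjusted p = 0.0207). The call was lost without any 1 Cre control library (adjusted p 0.0626 to 0.10). For Meis1, a haematopoietic homeobox gene, the log2 difference of 1.06 ± 0.26 did not pass (adjusted p = 0.0604). Of 11 tested genes for proteins that bind HHEX, Tle1, a Groucho corepressor, fell by 1.84 ± 0.29 on the log2 scale (adjusted p = 0.0112), to 2.71 ± 0.702 CPM (SD, n = 4) in Hhex KO, against 9.78 ± 3.27 CPM (SD, n = 3) in Cre control. The more abundant Tle3 (log2 -0.38 ± 0.13) and Tle4 (0.29 ± 0.12) did not pass the test. The call of Tle1 was lost without Cre control replicate 1 (adjusted p = 0.0589). Of the 11, 6 had an unadjusted p under 0.05, and 2 were called with DESeq2, 1 with unweighted limma-voom and 6 with sample quality weights. Jun, a subunit of the transcription factor AP-1, was at 92.5 ± 69.3 CPM (SD, n = 4) in Hhex KO and 418 ± 153 CPM (SD, n = 3) in Cre control and did not pass (log2 difference -2.17 ± 0.65, adjusted p = 0.110).

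Of 13 genes listed here as described to be repressed by HHEX, 5 were tested, of which 2 rose, 1 fell and 2 were not called. Of the 5, 4 had a positive log2 fold change and 4 an unadjusted p under 0.05, and 3 were called with DESeq2, 3 with unweighted limma-voom and 5 with sample quality weights. Of all genes tested, 4.56% were called with edgeR and 18.5% had an unadjusted p under 0.05. DESeq2 called 9% of them, unweighted limma-voom 4.77% and the fit with quality weights 23.5%. Nrp1, which encodes a coreceptor of semaphorins and VEGF, was higher by 2.35 ± 0.35 in log2 units, at 8.05 ± 2.61 CPM (SD, n = 4) in Hhex KO and 1.57 ± 0.453 CPM (SD, n = 3) in Cre control (adjusted p = 0.00817). Bcl2l11, the gene of the pro-apoptotic protein BIM that the study's title names, also rose (log2 fold change 0.92 ± 0.15, adjusted p = 0.0123), although its call was lost without any 1 Cre control library (0.0532 to 0.0793). The title names BIM, and the whole list was chosen with earlier results of these data known. The places of Bcl2l11 and of the other genes in the list may therefore not be independent of these data. Neither the rise of Bcl2l11, nor the changes of the others, nor the share of the list called is separate support for the list. Vegfa, an angiogenic growth factor, fell by 2.32 ± 0.36 on the log2 scale, to 9.04 ± 3.96 CPM (SD, n = 4) in Hhex KO, against 45.1 ± 16.04 CPM (SD, n = 3) in Cre control (adjusted p = 0.0123). That call was lost without Cre control replicates 1 (0.0641) or 3 (0.0646) and with no filter (0.0513). Eng, an endothelial TGF-beta coreceptor, and Tle4 did not pass, with log2 differences of 1.20 ± 0.55 (adjusted p = 0.295) and 0.29 ± 0.12 (0.227).

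The genes whose level was most like that of Hhex over the 7 libraries, out of 9271 named coding genes whose mean log2 CPM was 2 or more, were Pald1, Flot1, Cdh22, Tmem171 and Frrs1. Their Pearson r with Hhex in log2 CPM was 0.99 in each case, a description in which the libraries fall into 2 groups. Since these genes were picked for following Hhex, which differs between the groups, their lower level in Hhex KO and their correlations come with the choice and support nothing. Pald1 was nearest, at 41.2 ± 1.80 CPM (SD, n = 4) in Hhex KO and 72.1 ± 1.22 CPM (SD, n = 3) in Cre control (log2 fold change -0.81 ± 0.09). For the deviations from the group means, r was 0.73 to 0.90. Flot1 had a log2 fold change of -0.49 ± 0.10, Tmem171 of -0.84 ± 0.18, Frrs1 of -0.82 ± 0.12 and Cdh22 of -2.56 ± 0.16. None of the 5 lies on chromosome 19.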

How the data were processed

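RNA was sequenced from sorted mouse spleen NK cells of 4 Hhex KO and 3 Cre control samples, as single-end reads from a directional (strand-marking) kit, per the labels' protocols. STAR, featureCounts and mm10 appear in the submitters' processing notes. The annotation and the strand setting of the counting are named in none of the sources used here, so antisense pairs are uncertain. The authors deposited raw read counts per gene for 53379 genes. Columns were matched to samples by description and title, and every gene row was used.

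Symbols, positions and exon lengths were taken from GENCODE M21 on GRCm38 (mm10). Of the identifiers, 99.8% had a symbol without regard to version. The 9 members and the gene lists were chosen with earlier results of these data known.

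Counts were tested with edgeR 4.0.16 in R 4.3.3: filter by expression (minimum count 10, minimum total 15), TMM scaling and the robust quasi-likelihood F test of Hhex KO over Cre control without a covariate. Unless another method is named, adjusted p-values are Benjamini-Hochberg values of that test over the 12161 genes tested, called below 0.05. The standard error (SE) of a log2 fold change was derived from the F statistic, and 95% intervals use the test's degrees of freedom. CPM are per 1000000 of the TMM-scaled library size. RPKM divide these by the kilobases of exons of protein-coding transcripts, and the exons of all transcripts were an alternative chosen after seeing the data. Ratios of raw counts within a library were compared by a two-sided exact permutation test over the 35 splits, which cannot go below p = 0.0286. The code was tested on simulated counts. The samples are called biological replicates in the design text, but no source ties them to single animals, so the spread behind each p-value is that of the libraries and may be technical.

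The genes named are the members, the cell-cycle genes beside them, called genes within 1 Mb, up to 4 called genes of each list (else the one with the smallest p) and the 5 genes most correlated with Hhex. Other list genes were named after their values were seen. Alternatives were other scalings (RLE, upper quartile), other filters (none, or 10 CPM in 3 libraries), other tools (DESeq2 1.42.0, voom of limma 3.58.1, plain or with sample quality weights), a replicate block and leaving out each library.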

Additional observations from a re-analysis of the deposited data

Results flagged for a closer look

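Of the 29 named genes, 2 had 1 Hhex KO library far from the other 3, measured as the gap to the nearest library over the whole range against a limit of 0.829. Chance alone gives this in about 1 of 20 groups. Plce1 was at 2.33 CPM in Hhex KO replicate 1 and at 1.24 to 1.41 CPM in the other 3 (gap over range 0.841). Kif11 was at 18.8 CPM in Hhex KO replicate 4 and at 56.5 to 63.1 CPM in the other 3 (0.851).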

How the results depend on the processing

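The direction of Hhex, Exoc6, Plce1, Tbc1d12, March5 and Btaf1 was the same in every alternative run. Called genes numbered 554, against 369 with the filter of 10 CPM, 1094 with DESeq2 and 2859 with limma-voom and quality weights, and 141 to 818 with 1 library left out. Of the 8 members other than Hhex, 2 were called. The count was 1 with no filter (Plce1), 1 with the filter of 10 CPM (Exoc6) and 1 with the replicate block (Exoc6). It was 3 with limma-voom and quality weights, and 0 to 2 with 1 library left out. Within 1 Mb, 2 genes were called, 1 with no filter, 3 with DESeq2, 3 with the replicate block, 5 with quality weights, and 1 to 3 with 1 library left out. Leaving out 1 library, Hhex ranged from -0.76 to -0.67, its ratio to Ide from -0.94 to -0.68 and its ratio to Exoc6 from -0.25 to -0.15 on the log2 scale, where 6 libraries are too few for a permutation p below 0.05. Values near 0 turned their sign: Noc3l from -0.0015 to 0.12, Cpeb3 from -0.24 to 0.022 and Ide from -0.0078 to 0.18. The causes were not tested. Samples with the same number are linked here by that number only, and their deviations correlated by 0.0740, 0.177 and 0.00424. Hhex KO replicates 1 and 2 were each most like the Cre control of the same number, and Hhex KO replicate 3 was most like Cre control replicate 2. Whether the numbers mark pairs was not tested. With the replicate block, which leaves out Hhex KO replicate 4, 774 genes were called. Its adjusted p was 0.0678 for Plce1, 0.0756 for Rab11fip1, 0.0536 for Pink1 and 0.0197 for Kif11.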

Other observations

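Farther along chromosome 19, 1 more gene within 5 Mb of Hhex was called. Frat1, which encodes a protein that binds and inhibits the kinase GSK3, starts 4395 kb from Hhex and was at 20.6 ± 4.01 CPM (SD, n = 4) in Hhex KO and 44.4 ± 5.15 CPM (SD, n = 3) in Cre control (log2 fold change -1.10 ± 0.17, SE, adjusted p = 0.00957). Fas, the death receptor gene on the other side of Hhex, was at 3.53 to 4.69 CPM in Hhex KO libraries and 6.11 to 6.22 CPM in Cre control libraries. The groups did not overlap, but it was not called (log2 fold change -0.56 ± 0.18, SE, adjusted p = 0.138). Both were named after their values were seen.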
